A study of Mus musculus with 1528 samples.

Results

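Interferon-state macrophages were the single bone marrow–derived macrophages (BMDMs) with the highest transcript levels of 6 interferon-induced genes. They were selected on a score, the mean of log2(CPM + 1) over *Ifit1*, *Ifit2*, *Ifit3*, *Rsad2*, *Mx1* and *Cmpk2*, where CPM is the number of fragments of a gene scaled to a common total of gene fragments per cell. The top 8% of the kept cells were taken, which gave 115 members of 1439 kept cells, and the other 1324 kept cells served for comparison. The 1439 kept cells, of 1524 wells, had 200000 or more gene fragments and 5000 or more detected genes, with mitochondrial fragments making up no more than 10%.

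The cells came from 2 wild-type C57BL/6 mice (male C57BL/6J in the study's methods) and were grown from bone marrow with CSF1. All were stimulated for 24 h with IL4 and IL13 at 10 ng/ml each, the cytokines that drive M2 (alternative) activation. One treatment group had nothing further (IL4+IL13) and the other also had 10 ng/ml TNF (IL4+IL13+TNF), so every cell had the M2 cytokines and no unstimulated cells are analysed here. Live single cells were sorted into 4 plates for Smart-seq2, which sequences full-length cDNA of each well. Each plate held both treatments of 1 mouse, plates 2 and 3 those of mouse 1 and plates 4 and 5 those of mouse 2. The mouse is the replicate, with 2 in each treatment group. The number in the sample titles was taken as the mouse. Values per group are given in the order IL4+IL13 mouse 1, IL4+IL13 mouse 2, IL4+IL13+TNF mouse 1 and IL4+IL13+TNF mouse 2.

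Type I interferons bind the receptor formed by Ifnar1 and Ifnar2, and the kinases Jak1 and Tyk2 then activate STAT transcription factors. With Irf9 these form a complex that binds the interferon-stimulated response element (ISRE) in the promoters of antiviral genes. Interferon gamma acts through Ifngr1 and Ifngr2, and STAT dimers then bind gamma-activated sites (GAS) and induce guanylate-binding proteins, immunity-related GTPases and antigen presentation genes. Macrophages keep a low tonic interferon signal without infection and can amplify it through Irf7.

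Of the 6 genes of the score, Ifit1, Ifit2 and Ifit3 bind viral RNA or sit in the same complex, Rsad2 (viperin) makes a chain-terminating nucleotide, Cmpk2 is a mitochondrial nucleotide kinase and Mx1 is a dynamin-like antiviral GTPase. *Ifit2*, *Ifit3*, *Ifit3b* and *Ifit1* lie side by side on chromosome 19 (mm10, starts at 34550694, 34583531, 34607970 and 34640871), and *Rsad2* (chr12:26442746-26456452) and *Cmpk2* (chr12:26469204-26479837) are neighbours on chromosome 12. The promoter windows below show the ISRE of the 3 score genes that hold a match and of 3 GTPase genes outside the score that were among the furthest above the other cells. They are stretches of the RefSeq windows of 250 bases before to 50 after the gene start (build GRCm38.p6), written 5′ to 3′ on the strand of the gene. Capitals mark matches to GAAANNGAAA on either strand.
Ifit1 (chr19:34640745-34640853, plus strand): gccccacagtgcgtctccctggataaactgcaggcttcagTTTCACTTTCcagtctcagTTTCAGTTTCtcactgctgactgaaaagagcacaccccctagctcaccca
Ifit3 (chr19:34583333-34583456, plus strand): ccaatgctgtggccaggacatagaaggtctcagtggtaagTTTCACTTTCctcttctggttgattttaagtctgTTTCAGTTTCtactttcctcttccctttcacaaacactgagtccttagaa
Rsad2 (chr12:26456523-26456612, minus strand): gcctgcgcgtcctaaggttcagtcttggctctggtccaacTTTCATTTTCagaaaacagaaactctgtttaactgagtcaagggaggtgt
Gbp7 (chr3:142530243-142530332, plus strand): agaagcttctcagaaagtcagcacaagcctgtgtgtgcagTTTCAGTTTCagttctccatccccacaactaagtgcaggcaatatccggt
Irgm2 (chr11:58214873-58214962, plus strand): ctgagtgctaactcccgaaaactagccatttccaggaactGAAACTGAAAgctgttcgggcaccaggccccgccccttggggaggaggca
Tgtp2 (chr11:49064233-49064322, minus strand): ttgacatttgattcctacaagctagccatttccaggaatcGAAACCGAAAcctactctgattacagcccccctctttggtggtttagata

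In *Ifit1* both matches lay within 104 bases before the start, at 104 and 85 bases, and in *Ifit3* they began 156 and 122 bases before it. The single match of *Rsad2* began at 120, that of *Gbp7* at 53, that of *Irgm2* at 64 and that of *Tgtp2* at 70 bases before the start. The stretch of *Ifit3b*, the near-identical copy of *Ifit3*, had the same letter as that of *Ifit3* at 124 of 124 positions. Windows were matched by symbol for 5 of the 6 score genes, and 3 of the 5 held the ISRE letters, against 3.99% of the 27025 symbols with a window. No match was found in the windows of *Ifit2* and *Cmpk2*, and that of *Ifit2* held the GAS letters TTCNNNGAA. The ISRE letters were present for 18 of 34 further type I interferon genes (52.9%) and for 10 of 11 guanylate-binding and immunity-related GTPase genes (90.9%). GAS letters were present for 6 of those 11, among them *Gbp7*, *Irgm2* and *Tgtp2*, against 9.55% of all symbols. They are not marked in the stretches above. None of 4 MHC class II genes with a window held either motif. These matches describe letters and are not measured binding sites.

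The score was continuous, so the members are the upper end of a range rather than a separate cluster. The last member scored 5.31 and the first cell left out 5.29, the fifth members inside and outside the limit scored 5.38 and 5.20, and 31 members and 36 other cells lay within 0.5 of it. The median score was 6.75 in members and 1.41 in other cells, and the highest was 11.12. Members' medians were 6.59, 6.92, 7.18 and 6.55 in the 4 groups, and those of the other cells 1.92, 1.40, 1.17 and 1.39. In the plot of the score of every kept cell, members of each group run from the limit up to a highest score of 10.80, 10.36, 11.12 and 9.96.

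**Figure D1:**
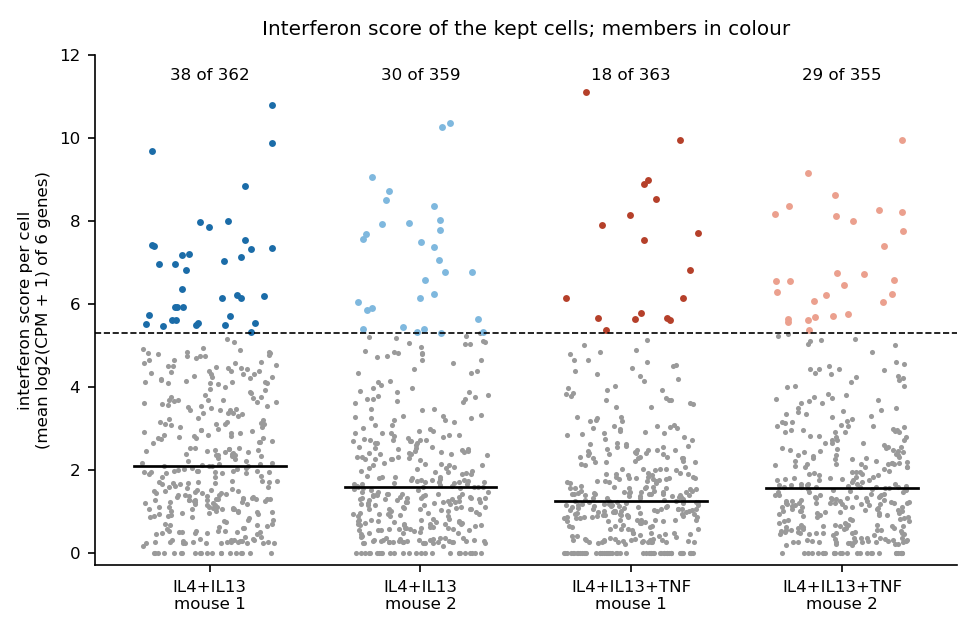
Interferon score of each kept cell (y axis, mean log2(CPM + 1) of the 6 genes) by treatment and mouse, with members in colour, other cells in grey, the group median as a black bar and the limit dashed. Members made up 38 of 362, 30 of 359, 18 of 363 and 29 of 355 cells, and no gap separates them from the cells below.

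Members were present in every group, and their share was lower with TNF by amounts that differed between mice. With 2 mice the test could not decide whether the treatments differ. They were 10.5% of the kept cells with IL4+IL13 in mouse 1 (38 of 362, 95% Clopper-Pearson interval 7.54 to 14.1), 8.36% in mouse 2 (30 of 359, 5.71 to 11.7), 4.96% with IL4+IL13+TNF in mouse 1 (18 of 363, 2.97 to 7.72) and 8.17% in mouse 2 (29 of 355, 5.54 to 11.52). The intervals cover counting error only. Both TNF shares were below both others, with a mean difference of -2.86 percentage points, but mouse 1 gave -5.54 and mouse 2 -0.19 (exact two-sided permutation test, p = 0.33, the smallest that 2 against 2 can give). Within plates the difference was -6.56 and -4.54 on plates 2 and 3 of mouse 1, and 0.28 and -0.96 on plates 4 and 5 of mouse 2. Without the TNF sample of mouse 1 it was -1.26, and without the IL4+IL13 sample of mouse 1 -1.79. Plates of 1 mouse and treatment also differed: with IL4+IL13, plate 4 held 9 members of 185 cells (4.86%) and plate 5 held 21 of 174 (12.1%), and with TNF these plates held 9 of 175 (5.14%) and 20 of 180 (11.1%).

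Members resembled the other cells of their group in quality. Their median fragments were 499894, 474023, 471722 and 477647 against 472850, 477780, 444154 and 490472.5 in the other cells, and median genes 7940, 7450, 8516 and 7859 against 7872, 7403, 8130 and 7837. The mitochondrial share was 2.82%, 3.48%, 2.72% and 3.07% in members and 3.12%, 3.79%, 2.77% and 3.30% in other cells. Kept cells had 200235 to 6122892 fragments. The deepest well was a member with IL4+IL13 of mouse 1 and gave 24.4% of the fragments of the members' sum there, and another with 2673602 fragments gave 25.5% of the members' sum with TNF of mouse 1. Counts that rest on these sums are therefore also given without both wells. After every cell was thinned to 200000 fragments, 112 of the 115 cells were again in the top 8%.

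All 12 macrophage markers were found in members. *Csf1r* (CSF1 receptor), *Cd68*, *Lyz2*, *C1qb* and *Adgre1* (F4/80) were each found in 100% of members, and the summed marker level was 17451 to 30843 CPM in members and 18335 to 29261 CPM in other cells. Of 8 plasmacytoid dendritic cell markers, *Siglech* and *Ly6d* had no fragment in any member, and the list's summed level of 102 to 190 CPM (74.3 to 141 in other cells) was mostly *Tcf4*, which 94.8% of members held. Conventional dendritic cell markers summed to 10.6 to 14.5 CPM in members and 8.62 to 218 in other cells, neutrophil markers to 0.040 to 3.92 and 1.24 to 5.78, and lymphoid markers to 0.28 to 1.31 and 2.30 to 3.78 CPM. Mast cell, stromal and erythroid markers each summed to at most 2.69 CPM in members. Among the 7 genes of the interferon label, *Iigp1* was the only one the score did not use, and it was found in 26.1% of members and 5.29% of other cells.

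The 6 score genes chose the cells, so their levels describe the members and are not tested. Counts summed over members gave *Ifit1* at 535, 439, 880 and 437 CPM, against 36.3, 31.6, 25.7 and 33.1 in other cells. *Rsad2* stood at 514, 628, 1438 and 369 CPM in members and 41.2, 36.4, 21.3 and 23.8 in other cells. *Ifit2* reached 440, 574, 763 and 524 CPM in members. Every group of members was above every group of other cells for these genes. *Ifit3* stood at 296, 250, 726 and 204 CPM, and *Cmpk2* at 349, 372, 586 and 221. The sums with TNF of mouse 1 rested in part on its deepest well, without which they were 631 CPM for *Ifit1*, 568 for *Ifit2*, 450 for *Ifit3*, 682 for *Rsad2* and 283 for *Cmpk2*. Medians over single members there were 192 CPM for *Ifit1*, 203 for *Rsad2* and 171 for *Cmpk2*, below both IL4+IL13 groups. The median of *Ifit3* there, 238 CPM, was above both, and those of *Ifit2* (362 CPM) and *Mx1* (28.7 CPM) lay between them. Among the sums, *Mx1* was the lowest at 66.7, 128, 67.7 and 104 CPM, and 7.06, 9.28, 5.82 and 12.17 in other cells. Per kilobase of exon, members averaged 216 CPM for *Ifit1*, 211 for *Ifit3*, 170 for *Rsad2*, 146 for *Ifit2*, 91.7 for *Cmpk2* and 24.2 for *Mx1*.

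**Figure D2:**
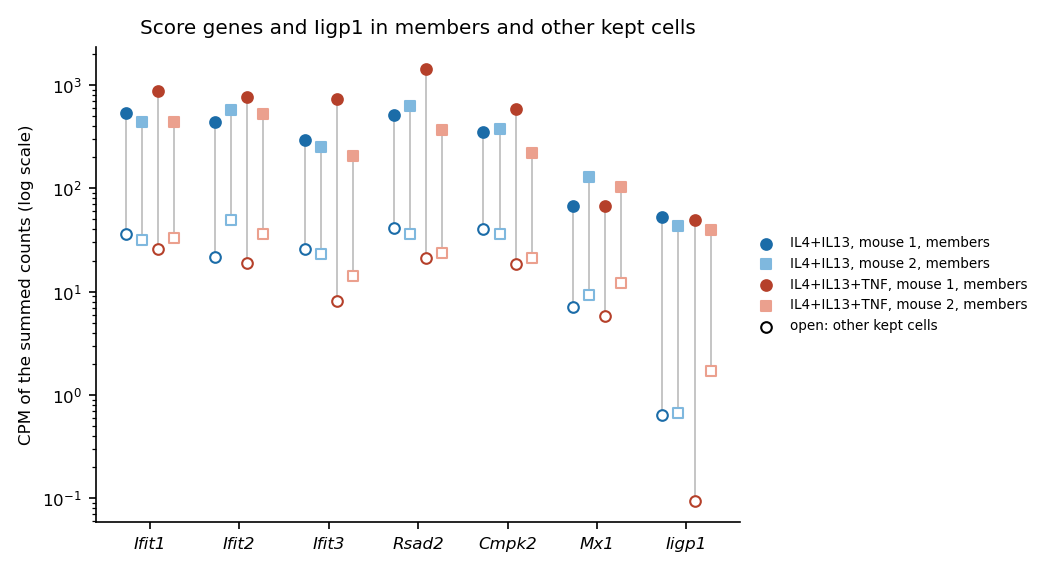
CPM of summed counts (y axis, log scale) of the 6 score genes and Iigp1 in members (filled) and other kept cells (open) of each treatment and mouse, joined by lines. Every filled point lies above the open points of its gene, and Iigp1 in members lies between 39.4 and 52.7 CPM, where the point with TNF of mouse 1 would be 0.90 CPM without its deepest well.

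Single members differed in which of the genes they held. All 6 were found in 63 of 115 members (54.8%), 5 in 49 and 4 in 3, while 11 of 1324 other cells (0.831%) held all 6. *Ifit1* was found in 115 members, *Ifit2* and *Cmpk2* in 112 each, *Rsad2* in 110, *Ifit3* in 109 and *Mx1* in 77. Across members *Ifit1* ran from 1.69 to 5518 CPM (median 287) and *Rsad2* from 0 to 7216 CPM (median 264). In the other cells the median of each score gene was 0 CPM, although 48.1% held an *Ifit1* fragment and 49.5% one of *Rsad2*.

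*Iigp1*, an immunity-related GTPase that attacks the vacuoles of intracellular parasites, stood at 52.7, 43.0, 49.9 and 39.4 CPM in members and 0.64, 0.67, 0.095 and 1.72 CPM in other cells. It came from few cells: 9 of 38, 8 of 30, 4 of 18 and 9 of 29 members held it, and its median over members was 0 CPM. At equal depth it was found in 18.3% of members. The 30 members with *Iigp1* scored 5.44 to 10.80 (median 7.70) and the 85 without it 5.31 to 11.12 (median 6.36), so the ranges overlapped. Much of 2 sums came from the deepest wells, without which *Iigp1* stood at 22.5 CPM in members with IL4+IL13 of mouse 1 and at 0.90 CPM in members with TNF of mouse 1, so that the last group was less than 2-fold above the other cells on the CPM + 1 scale. The log2 ratio of members to other cells was 4.88 (median of 4 groups) and 3.87 without these wells.

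The 45 other type I interferon genes outside the score were higher in members as a list. Here a gene counts as higher or lower where CPM + 1 of members differed from that of other cells at least 2-fold in all 4 groups, among genes found in at least 10% of either. Of 14592 such genes outside the score, 56 were higher (0.384%) and 39 lower (0.267%), and the median log2 ratio over all of them was -0.10. Because the score chose the cells on the same libraries, these counts carry no test. Of the type I genes, 44 were found, 20 were higher, none was lower, and 43 had a ratio above 0 in all 4 groups, as did 726 of all 14592 genes (4.98%). The list's median log2 ratio was 1.33. Of the 56 higher genes, 31 were on the type I or GTPase lists and 8, some of them on those lists, were of the *Ifi200* family.

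*Ifit3b* stood at 25.3, 42.2, 91.5 and 21.3 CPM in members and 2.20, 2.43, 0.69 and 0.96 in other cells, but it is a near copy of *Ifit3* and the split of fragments between the pair is uncertain. *Mx2*, the neighbour of *Mx1* on chromosome 16, stood at 26.8, 38.3, 14.97 and 45.2 CPM in members against 4.95, 7.89, 3.59 and 3.44. *Ifi44* stood at 77.2, 80.6, 186 and 95.9 CPM in members against 16.5, 23.4, 15.97 and 26.8. None of the 3 had a group of members as low as any group of other cells. Without its deepest well, *Ifi44* stood at 102 CPM in members with TNF of mouse 1. *Trim30d*, a tripartite-motif gene, had log2 ratios of 1.64, 1.93, 1.95 and 1.72. Genes that all macrophages held at high level stood closer together: *Ifitm3*, which blocks viral entry, had a median log2 ratio of 0.20, *Ifi27l2a* 0.41 and *Bst2* (tetherin) 0.63. *Isg15*, a ubiquitin-like modifier, was low in this table, at 2.51, 6.18, 6.29 and 2.03 CPM in members and 0.68 to 1.12 in other cells.

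The *Ifi200* genes code for DNA-binding PYHIN proteins and form a cluster of near-identical copies on chromosome 1, so their single values are uncertain. *Ifi205* stood at 86.5, 121, 89.3 and 76.1 CPM in members against 20.01, 24.9, 13.7 and 18.3. *Ifi211* stood at 193, 141, 245 and 138 CPM against 52.2, 39.2, 32.7 and 35.5, and *Ifi203* at 368, 451, 261 and 263 against 101.1, 138, 56.6 and 79.2. All 3 were found in at least 97.4% of members. *Ifi213* and *Ifi206* were found in 50.4% and 52.2% of members, and their median log2 ratios were 2.65 and 2.60.

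Guanylate-binding proteins and immunity-related GTPases, which act on vacuoles of pathogens, had the highest list median, 1.78. Of 18 genes 15 were found, 11 were higher and none lower. *Irgm2* stood at 127, 122, 94.6 and 137 CPM in members and 21.99, 30.8, 19.8 and 21.4 in other cells. *Gbp7* stood at 107, 125, 175 and 149 CPM against 20.2, 31.5, 18.3 and 24.1. Both were above all other cells' values in every group, with *Gbp7* at 110 CPM in members with TNF of mouse 1 without the deepest well. *Tgtp2*, which shares fragments with its copy *Tgtp1*, stood at 37.4, 22.9, 48.4 and 24.8 CPM against 6.12, 3.25, 2.91 and 6.59. *Gbp2* missed the rule in 1 group: its log2 ratio was 2.23, 2.67 and 2.77 in 3 groups but 0.49 with TNF in mouse 2, where other cells stood at 166 CPM and members at 232. Without the deepest wells *Gbp2* in members of mouse 1 stood at 38.9 in place of 79.97 CPM with IL4+IL13 and at 177 in place of 423 CPM with TNF.

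**Figure D3:**
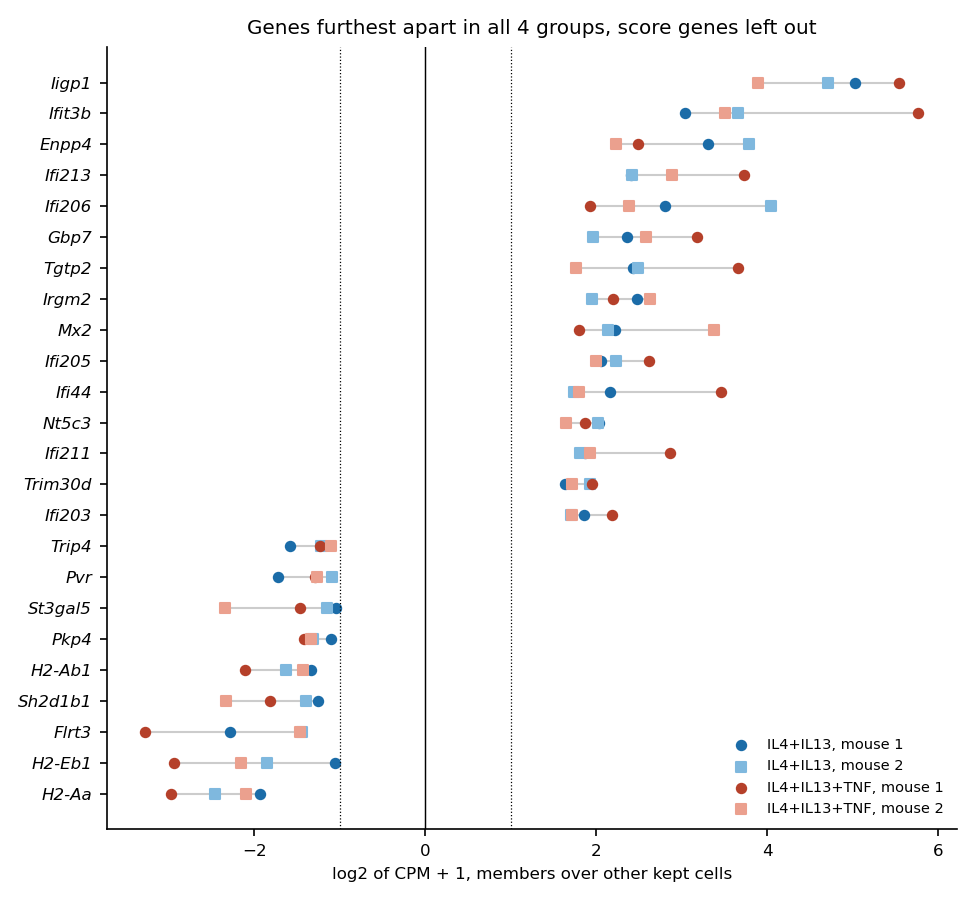
Log2 ratio of CPM + 1 of members to other kept cells (x axis) in each treatment and mouse for the 15 genes furthest above and 9 of the 10 furthest below in all 4 groups, outside the score. Dotted lines mark a 2-fold difference, and the 4 groups of every gene lie on the same side beyond it. Without the deepest wells, genes such as Iigp1, H2-Ab1, H2-Eb1 and Sh2d1b1 were less than 2-fold apart in a group of mouse 1.

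Fragments of interferon genes were found in few cells of either kind. Of 21 ligand genes, 19 had no fragment in any member and 12 had none in any kept cell. *Ifnb1* had 0 fragments in 115 members, which allows up to 2.61% of members with a detected fragment at this depth and does not limit the share that express the gene, and 3 fragments in 3 of 1324 other cells. *Ifnk* was found in 2 members with 24 fragments in all and in 30 other cells (2.27%), and *Ifnab* in 1 member with 1 fragment and in 4 other cells. Any ligand was found in 3 members and in 51 other cells (3.85%). *Ifng*, *Ifnl2* and *Ifnl3* had no fragment in any kept cell.

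Receptors and kinases were at like levels in members and other cells, while *Stat2* and *Irf7* were higher. *Ifnar1* stood at 56.8, 63.2, 51.5 and 82.9 CPM in members and 62.98, 62.95, 88.2 and 77.9 in other cells, and *Ifnar2* at 114, 79.9, 103 and 84.0 against 96.0, 102, 84.0 and 90.8. Their ranges overlapped, as did those of *Ifngr2* (131 to 211 CPM against 146 to 236). *Ifngr1* was lower in members of every group, with log2 ratios of -0.29, -0.28, -0.83 and -0.34. *Jak1* and *Tyk2* had median ratios of 0.03 and -0.11.

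*Stat2* stood at 213, 265, 194 and 310 CPM in members and 78.8, 121, 52.7 and 84.0 in other cells. *Irf7*, which amplifies interferon production, stood at 133, 162, 212 and 111 CPM against 60.3, 43.2, 52.8 and 50.7. Without the deepest well, *Irf7* stood at 120 CPM in members with IL4+IL13 of mouse 1, just under 2-fold above the other cells on the CPM + 1 scale. Neither gene overlapped between members and other cells. Other factors were closer: median ratios were 0.30 for *Irf9*, 0.45 for *Irf1*, 0.46 for *Irf2*, -0.04 for *Stat3*, -0.13 for *Irf8*, -0.31 for *Irf3*, -0.59 for *Irf5* and -0.89 for *Irf4*. *Socs1*, a feedback inhibitor of JAK kinases, had ratios of 0.40, 1.03, 0.90 and 0.73. Over the 19 genes of receptors and signalling the median was 0.03, with 2 higher and none lower when all wells were included.

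Among 11 sensors found, the RNA sensors *Ddx58* (RIG-I) and *Ifih1* (MDA5) were higher, and both were also on the type I list. *Ddx58* stood at 228, 325, 244 and 273 CPM in members and 83.0, 83.0, 75.2 and 92.6 in other cells. *Tlr3* had ratios of 0.88, 0.27, 1.78 and 1.28, with 44.6 CPM in members with TNF of mouse 1 and 26.2 CPM without the deepest well. *Mavs*, the adaptor of the RNA sensors, was below 0 in every group with a median of -0.40, and the kinase *Tbk1* had 0.13.

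Chemokines were uneven. *Ccl12*, a monocyte attractant, stood at 107, 61.3, 507 and 338 CPM in members and 35.3, 27.2, 99.6 and 125 in other cells, and was higher within every group although the ranges over groups overlapped. *Ccl2* had log2 ratios of 1.20, -0.47, 1.06 and 1.31, *Ccl7* of 0.89, 0.56, 1.27 and 1.76 and *Ccl8* of 1.67, 0.94, 1.13 and 0.95. In mouse 1 with IL4+IL13, leaving out the deepest well took *Ccl2* in members from 1361 to 645 CPM (590 in other cells) and *Ccl7* from 1369 to 708 CPM (738 in other cells). *Cxcl10*, a T cell attractant and a classical interferon target, was also higher but rested on few cells: 21 of 115 members held it, 3 members and none of the 1324 other cells exceeded 1000 CPM, and the sums were 113, 2.98, 248 and 34.7 CPM. *Cxcl9* and *Cxcl11*, which share its receptor, had no fragment in any member. *Ccl22*, made by activated dendritic cells and M2 macrophages, had ratios from -6.44 to 0.04.

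MHC class I genes were mostly at like levels, with a list median of 0.24 and no gene of 16 past the rule. *Tap1*, the peptide transporter, had ratios of 0.59, 1.37, 1.46 and 0.96, *Nlrc5*, the class I transactivator, of 1.62, 0.80, 0.51 and 0.93 and *H2-T22* of 0.81, 0.51, 1.25 and 0.68. *B2m* and *H2-K1* had medians of 0.09 and 0.12.

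MHC class II genes were lower in members within each group. All 7 had ratios below 0 in every group, as did 2006 of all 14592 genes outside the score (13.7%). The 2-fold rule was passed by 3, and the list median was -1.01. *H2-Aa*, the alpha chain of I-A, stood at 71.2, 90.4, 85.6 and 305 CPM in members and 275, 504, 680 and 1313 in other cells. *H2-Ab1* stood at 109, 186, 146 and 404 CPM against 276, 576, 635 and 1094, and *H2-Eb1* at 60.1, 84.9, 46.5 and 179 against 126, 309, 364 and 799. Without the deepest well, *H2-Ab1* stood at 144 and *H2-Eb1* at 79.5 CPM in members with IL4+IL13 of mouse 1. Both were then less than 2-fold below the other cells there on the CPM + 1 scale. Within each group members were below the other cells, although members with TNF of mouse 2 were above the other cells with IL4+IL13 of mouse 1. Cells above 1000 CPM of *H2-Aa* were 2.63%, 3.33%, 0% (0 of 18, which allows up to 16.7%) and 10.3% of members (5 of 115) and 6.17%, 9.12%, 17.4% and 27.0% of other cells (198 of 1324). Medians per cell were 1.81, 18.3, 12.998 and 96.7 CPM in members and 2.38, 23.4, 48.5 and 79.7 in other cells, so members were below in 3 groups and above with TNF of mouse 2. With TNF, the 7 conventional dendritic cell markers summed to 10.6 and 14.5 CPM in members and to 30.3 and 218 CPM in other cells. This difference lay mostly in *Ccr7*, a chemokine receptor of migrating dendritic cells, and not in the markers as a list. *Ccr7* stood at 0.29 and 1.09 CPM in members and 20.99 and 203 CPM in other cells, while *Flt3* stood at 7.06 and 7.05 against 7.22 and 6.997 CPM. *Ccl22* stood at 0.29 and 3.56 CPM in members with TNF and at 44.8 and 394 CPM in other cells. With IL4+IL13 the marker sums were 13.2 and 11.1 CPM in members and 8.62 and 12.6 CPM in other cells. The part of cells with *Ccr7* in the class II difference was not tested.

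**Figure D4:**
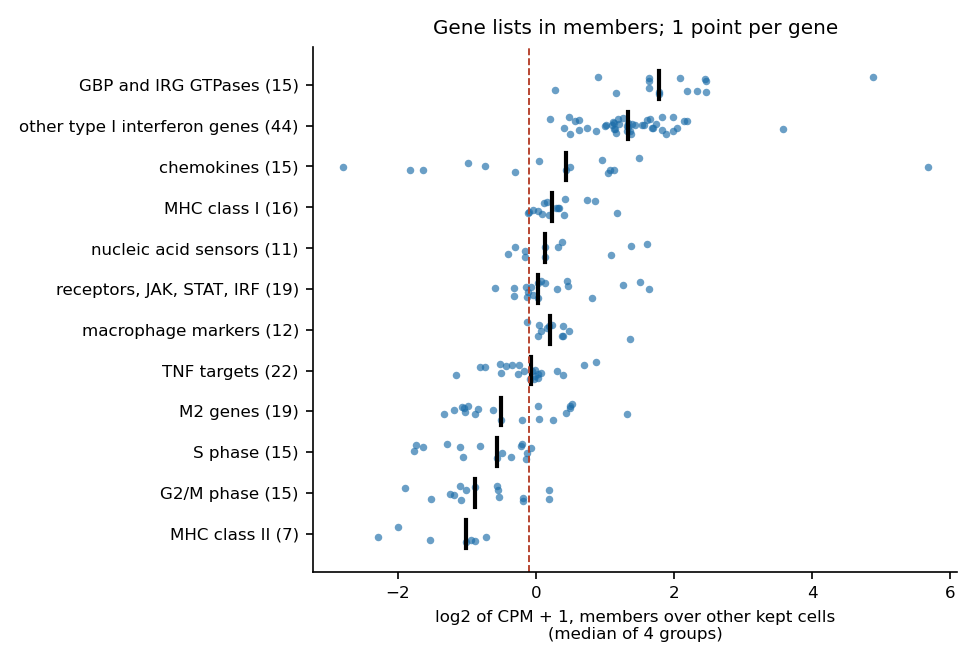
Log2 ratio of CPM + 1 of members to other kept cells (x axis, median of the 4 groups) for each gene found on 12 lists, 1 point per gene, with the list median as a black bar, the number of genes in parentheses and the median of all genes (-0.10) dashed. The GTPase (1.78) and type I interferon (1.33) lists lie to the right and the MHC class II list (-1.01) to the left.

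The genes furthest below the other cells shared no list apart from class II. *Flrt3*, an adhesion protein gene, stood at 0.28, 0.64, 1.43 and 7.34 CPM in members and 5.24, 3.45, 22.6 and 22.03 in other cells. *Sh2d1b1*, an adaptor of SLAM receptors, stood at 12.3, 17.2, 1.81 and 3.20 CPM against 30.9, 46.8, 8.88 and 20.1. *Trip4*, a transcription coactivator, was found in 67.0% of members and had ratios of -1.59, -1.23, -1.23 and -1.10. *Pkp4*, *Pvr* and *St3gal5* had medians of -1.32, -1.28 and -1.31. Without the 2 deepest wells 23 genes were lower, of which 19 were among the 39, and at equal depth 18, of which 11 were. The count of higher genes was 53 under both, with 47 and 45 of the 56 shared.

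M2 genes and TNF targets had medians of -0.50 and -0.07 in members against other cells, and none of the 19 and 22 genes found passed the rule. *Clec10a*, a C-type lectin, had ratios of 0.57, 0.37, 0.93 and 0.42, and *Mrc1*, the mannose receptor, of 0.70, 0.28, 0.13 and 0.73. *Arg1*, the arginase of M2 cells, had ratios of -1.09, -1.58, -2.93 and -0.10. The Fc receptor *Fcgr1* was the 1 macrophage marker that was higher, at 128, 173, 58.1 and 42.8 CPM against 60.1, 59.2, 17.1 and 17.96, though the TNF groups of members lay below the IL4+IL13 groups of other cells. Without the deepest well, *Fcgr1* stood at 120 CPM in members with IL4+IL13 of mouse 1, just under 2-fold above the other cells on the CPM + 1 scale.

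Within members, TNF against no TNF was tested on 4 sums, with the score genes left out of the counts of calls. edgeR called 0 of 13471 genes (0%) at an adjusted p of 0.05, with 794 at an unadjusted p under 0.05, and 0 with the mouse as replicate block (978 unadjusted). DESeq2 called 185 genes (1.37%), of which 106 rose. At equal depth edgeR called 1 of 12088 genes (0.00827%), and 2 with the block (0.0165%). In the other cells edgeR called 1 of 14378 genes (0.00696%), *Clec4e*, and 1383 (9.62%) with the block, and DESeq2 called 513 (3.57%). The members' sums hold 18 to 38 cells and the others' 324 to 345. The test of the difference between both responses called 0 of 14592 genes (0%) in edgeR, with 624 unadjusted, and 75 (0.514%) in DESeq2.

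*Clec4e*, the receptor Mincle, stood at 8.40 and 2.06 CPM in members with IL4+IL13 and at 322 and 928 CPM with TNF, and at 21.2, 22.8, 679 and 678 CPM in other cells. In members the log2 fold change was 6.93 ± 0.99 (SE, n = 2 mice, edgeR adjusted p = 0.535). The difference from the other cells' change was 1.93 ± 0.84 (SE, edgeR adjusted p = 1). *Saa3*, an acute-phase protein, stood at 0.080, 0.71, 200 and 302 CPM in members, with a log2 fold change of 9.56 ± 0.98 (SE, edgeR adjusted p = 0.535) that passed at equal depth (adjusted p = 0.0254). DESeq2 and edgeR without a gene filter called both *Clec4e* and *Saa3*. For these genes the TNF groups did not overlap the others, and the share of all genes without overlap was not counted. Of 22 TNF targets tested, 18 were above 0 in both mice in members (81.8%, against 23.5% of all genes tested) with a median log2 fold change of 2.14. In the other cells 20 were above 0 in both mice, 19 rose with the block, and the median was 2.00.

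Of the 6 M2 signature genes, *Retnla* (RELMα) stood at 59.2 and 906 CPM in members with IL4+IL13 and at 0.57 and 7.56 CPM with TNF, a log2 fold change of -6.81 ± 1.83 (SE, edgeR adjusted p = 0.649, 0.451 with the block). With equal depth and the block the adjusted p of edgeR was 0.0241. *Apoe* (apolipoprotein E) stood at 311, 530, 37.0 and 91.2 CPM, with -2.65 ± 0.53 (SE, edgeR adjusted p = 0.537). *Clec10a* stood at 368, 455, 145 and 156 CPM, with -1.36 ± 0.26 (SE, edgeR adjusted p = 0.537). *Mrc1* stood at 1839, 1529, 590 and 1166 CPM. Values with TNF were below both others for these 4 genes, but none passed the edgeR threshold. Of all genes tested in members, 30.9% were below 0 in both mice, and the share without overlap between treatments was not counted. DESeq2 called *Retnla* (adjusted p = 0.0354), *Apoe* (4.74e-05) and *Clec10a* (0.0419), and edgeR without a gene filter called *Retnla* and *Apoe*. *Mgl2*, a lectin next to *Clec10a*, overlapped between treatments at 1068, 423, 286 and 726 CPM.

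*Il10*, an anti-inflammatory cytokine, was found in 11.3% of members, at 16.4, 4.76, 12.97 and 3.85 CPM, and overlapped between treatments. In other cells it stood at 7.81, 3.803, 1.16 and 0.55 CPM and fell with the block (log2 fold change -2.68, edgeR adjusted p = 0.000758). The difference between both changes was 2.45 ± 0.79 (SE, edgeR adjusted p = 1).

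Receptor levels in members were 114, 132, 52.3 and 59.7 CPM for *Tnfrsf1a* (TNF receptor 1), a log2 fold change of -1.05 ± 0.31 (SE, edgeR adjusted p = 0.706). *Tnfrsf1b* (TNF receptor 2) stood at 119, 244, 88.1 and 297 CPM and *Il4ra* at 15.6, 13.2, 13.8 and 11.9 CPM, and both overlapped between treatments. *Il13ra1* stood at 3.19, 2.98, 6.68 and 14.7 CPM and was found in 9.57% of members.

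The counts of type I interferon genes on either side of 0 with TNF lay near those of all genes in members. Of 45 type I genes tested, 11 were above (24.4%) and 16 below 0 (35.6%) in both mice, with a median log2 fold change of -0.01, against 23.5% and 30.9% of all genes tested, and of 16 GTPases 8 were above and 4 below (median 0.48). *Irf7* had a log2 fold change of 0.24 ± 0.43 (SE), and *Ccl12* had 2.43 ± 0.44 (SE, edgeR adjusted p = 0.535). edgeR called no gene of either list.

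**Figure D5:**
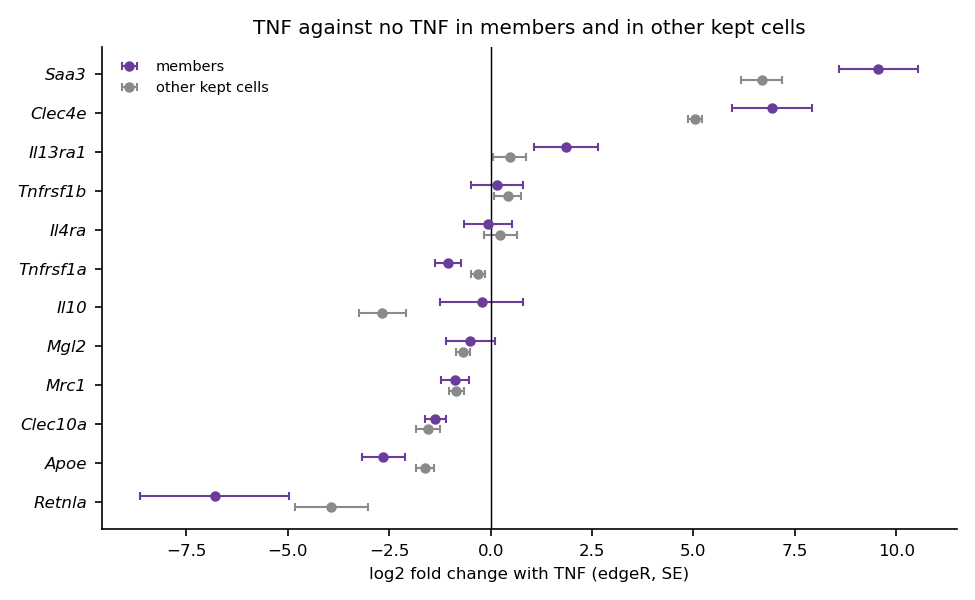
Log2 fold change with TNF (x axis, edgeR, bars are SE) in members and in other kept cells for Saa3, Clec4e, 4 cytokine receptors and 6 M2 signature genes. Retnla (-6.81 in members) lies furthest left and Saa3 (9.56) furthest right, and the members' bars are wider than those of the other cells for 11 of the 12 genes.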

How the data were processed

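Single BMDMs of 2 mice were measured by Smart-seq2. The authors deposited a table of counts, the whole number of uniquely mapped fragments per gene and well, aligned with gsnap to mm10 and assigned to Ensembl genes without using strand. The submitters' processing notes name featureCounts 1.6.3. The deposited counts are not normalized, carry no molecular identifiers, and include 92 spike-in rows that were left out. For 1524 wells the labels gave the treatment and a number that was taken as the mouse. The 4 samples without such a number were not assigned, and 11 columns that match no assigned sample were not used. No doublet caller was run on cells sorted singly into wells.

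The score, the limit of 8% and the groups compared were given, and members and gene lists were chosen with earlier results of these data known. Counts were summed per mouse, treatment and membership. Log2 ratios of CPM + 1 of members to other cells were computed in the 4 groups without a test. TNF was tested with edgeR 4.0.16 (quasi-likelihood, TMM, Benjamini-Hochberg adjustment over all genes tested, threshold 0.05) in R 4.3.3 on genes found in at least 10% of cells of either treatment that pass filterByExpr. The difference between members and other cells was the interaction with 1 term per culture. The SE given for edgeR was worked back from its test, as the absolute log2 fold change over the square root of the F statistic. Alternatives were the mouse as block, DESeq2 1.42.0, limma 3.58.1, library size only, no gene filter, other limits, thinning to 200000 fragments and leaving out each sample. The samples were paired by this number, with both treatments of a number taken to come from 1 mouse. The titles give the number and do not name a mouse. Deviations of same-mouse sums correlated across genes with r = 0.148 in members and 0.656 in other cells. The edgeR step was tested on simulated data first. Kept cells held 200235 to 6122892 fragments (median 471020), which limits genes of low level in single cells.

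Named genes were the score genes and *Iigp1*, the 15 genes furthest above and 10 furthest below in all 4 groups (found in at least 25% of members or of other cells, mean of at least 10 CPM), up to 4 genes per list with the largest median ratio, all interferon ligands, receptors, STATs and IRFs, and for TNF 6 M2 genes and 4 receptors. Some genes that the rule names are not reported here. Others were named after their values were seen. Promoters came from RefSeq.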

Additional observations from a re-analysis of the deposited data

How the results depend on the processing

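The mean difference in the share of members with TNF was below 0 under 10 alternatives (-4.47 to -1.26 percentage points with 1 sample left out). The direction in mouse 2 was not kept under all of them. With the top 5% the difference was -3.05 in mouse 1 and 0.34 in mouse 2. With cells ranked by the other type I interferon genes it was -6.37 and 0.08. The exact two-sided permutation test gave p = 0.67 under both, against 0.33 in the main setting. With the mouse as replicate block the mean difference was -2.86 as well. The sign permutation p was then 0.5, the smallest that 2 pairs can give. The count of 56 higher genes was 67 to 72 with 1 group left out and within 1.5 times under every setting. The 39 lower genes became 114 with the top 5%, 25 with the top 10%, 18 at equal depth, 23 without the 2 deepest member wells (chosen after seeing the data), 21 with mean CPM per cell, 74 without a gene filter and 88 to 126 with 1 group left out. Fewer groups have to pass in the last case, and the cause of the others was not tested. Of 250 ratios of the 25 named genes under alternatives, 18 moved by over 1 SD and none reversed.

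For TNF in members, edgeR called 0 genes in the fits that left out 1 sample, 1 at equal depth (*Saa3*), 2 at equal depth with the mouse block (*Saa3* and *Retnla*, both chosen after seeing the data) and 229 without a gene filter, and DESeq2 called 185. In other cells the 1 call became 1383 with the block, 21 at equal depth, 1543 with both and 513 in DESeq2. The 0 calls of the difference became 75 in DESeq2 and 2 without a gene filter, with 0 without the culture as replicate block. With 1 sample left out, the change of *Mgl2* ran from -1.25 to 0.33, of *Il10* from -1.45 to 0.95, of *Tnfrsf1b* from -0.90 to 0.74 and of *Il4ra* from -0.25 to 0.078, each crossing 0, and *Tnfrsf1b* also at equal depth with the block (-0.014) and in limma (-0.040). Each members' sum held 18 to 38 cells, and whether this set the number of calls was not tested.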

Other observations

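Cell cycle levels in members against other cells varied between groups, and no cell cycle gene passed the 2-fold rule in all 4. Summed S phase genes stood at 822, 401, 779 and 240 CPM in members and 1201, 498, 763 and 412 in other cells, and G2/M genes at 517, 1009, 872 and 169 against 1509, 952, 624 and 440. Members were thus above the other cells for S phase in 1 group and for G2/M in 2. Of 15 S phase genes 3 and of 15 G2/M genes 1 were below 0 in every group, against 2006 of 14592 genes outside the score (13.7%), and the list medians were -0.56 and -0.89. *Rrm2*, a subunit of ribonucleotide reductase, stood at 30.0, 10.4, 65.5 and 3.05 CPM in members and 126, 29.8, 71.6 and 35.1 in other cells. Without the deepest well, *Rrm2* in members with TNF of mouse 1 stood at 87.9 CPM, above the other cells there. *Top2a*, a DNA topoisomerase of dividing cells, stood at 47.1, 56.7, 124 and 3.85 CPM in members and 151, 102, 72.8 and 66.3 in other cells, so members with TNF of mouse 1 lay above the other cells there.

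Some genes outside every list were also higher in all 4 groups and are named here after their values were seen. *Il15*, a cytokine that sustains NK and memory T cells, had log2 ratios from 1.02 to 1.72 and was found in 81.7% of members and 59.9% of other cells. *Ms4a6b*, a tetraspan membrane protein gene, had a median of 1.39. *Enpp4*, a nucleotide phosphodiesterase gene, had 2.90 but was found in 27.0% of members, and its level in members with IL4+IL13 of mouse 1 was 21.8 CPM with the deepest well and 5.32 CPM without it. Of the 56 higher genes with a promoter window, 24 of 43 (55.8%) held the ISRE letters, and of the lower genes 1 of 25 (4%), against 3.99% of all symbols.

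When the cells were ranked by the 45 other type I interferon genes in place of the 6 of the score, the top 8% shared 75 of 115 cells (65.2%) with the members. Members' medians of that second score were 6.12, 5.82, 6.28 and 5.98 in the 4 groups, and those of the other cells 4.46, 4.01, 4.27 and 4.30, with overlapping ranges in every group.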
